A study of Rattus norvegicus with 15 samples.

Results

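The proteins that coat lipid droplets and that fuse or bud them were followed as 9 genes in rat liver: the perilipins Plin2, Plin3, Plin4 and Plin5, the CIDE genes Cidea, Cideb and Cidec, and the FIT genes Fitm1 and Fitm2. They were chosen by gene symbol among 14217 genes named on the array, and 11 of the 31042 non-control probe sets on the array carried 1 of these symbols in the platform annotation. Plin2 and Fitm2 had 2 probe sets each and the other genes had 1. Each of the 15 liver samples, called livers below, was read on its own Affymetrix array and came from a male Sprague Dawley rat aged 7 weeks when the experiment began. All animals received a high fat diet (59% of kilocalories as fat) and a daily gavage over 6 weeks. The 5 vehicle samples had 0.5% methylcellulose alone, and the groups called 10 mg/kg and 30 mg/kg, again of 5 samples, had that daily dose of PF-04923503. By the labels this compound inhibits acetyl-CoA carboxylase (ACC), which commits carbon to fatty acid synthesis by making malonyl-CoA. No group on a standard diet was analysed here, and since the labels do not say whether every sample is a separate animal, the p-values speak for the scatter among samples.

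A lipid droplet is a core of triglyceride and sterol ester under a single layer of phospholipid. Perilipins bind that layer and restrain or admit lipases, CIDE proteins sit where droplets touch and pass lipid from the smaller to the larger one, and FIT proteins of the endoplasmic reticulum help new droplets to bud. In hepatocytes Plin2 is the main coat protein and is known to follow the amount of stored fat, Plin3 moves from the cytosol to new droplets, Plin5 links droplets to mitochondria, and Cidea and Cidec are known from mouse studies to rise in fatty liver. Droplet coat and fusion genes are known targets of the PPAR receptors, and some also answer to SREBP-1c or ChREBP, which drive lipogenesis.

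The start sites of Plin2 and Plin3 are shown because these were the members with a probe set at an unadjusted p under 0.05 against vehicle. Each window runs from 250 bases before to 50 bases after a start site in RefSeq on build GRCr8, 5′ to 3′ on the gene's strand, and Plin2 has 2 such windows. Capitals mark matches to 4 motifs searched on both strands: the DR1 repeat that PPAR receptors bind (AGGTCA, any 1 base, AGGTCA), the single copy AGGTCA that is part of it, the E-box CACGTG and TCACNCCAC, a form of the sterol regulatory element.
Plin2 first window (chr5:106228969-106229268, minus strand): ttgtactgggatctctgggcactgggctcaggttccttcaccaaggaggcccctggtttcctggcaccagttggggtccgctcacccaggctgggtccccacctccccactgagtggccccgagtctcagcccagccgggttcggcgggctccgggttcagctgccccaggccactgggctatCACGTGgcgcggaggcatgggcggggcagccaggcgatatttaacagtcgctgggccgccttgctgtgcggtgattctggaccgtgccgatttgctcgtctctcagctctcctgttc
Plin2 second window (chr5:106228488-106228787, minus strand): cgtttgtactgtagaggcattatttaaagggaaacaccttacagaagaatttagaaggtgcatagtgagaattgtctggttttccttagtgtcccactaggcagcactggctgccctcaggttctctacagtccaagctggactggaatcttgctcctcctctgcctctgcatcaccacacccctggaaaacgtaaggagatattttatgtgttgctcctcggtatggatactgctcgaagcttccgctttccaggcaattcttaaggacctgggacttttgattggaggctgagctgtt
Plin3 window (chr9:1210163-1210462, minus strand): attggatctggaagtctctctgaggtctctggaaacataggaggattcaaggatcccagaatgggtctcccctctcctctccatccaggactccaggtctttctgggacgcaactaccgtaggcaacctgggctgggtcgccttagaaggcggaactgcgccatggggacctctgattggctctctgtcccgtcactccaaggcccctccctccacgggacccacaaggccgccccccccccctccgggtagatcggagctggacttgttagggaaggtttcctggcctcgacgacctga
The single match in these 3 windows was an E-box that starts 67 bases before the first Plin2 start site. Windows of all 9 genes were in the table, and the only other match was a single AGGTCA 157 bases before the start of Plin5. The E-box is found in 6.42% of all 33469 windows, the single AGGTCA in 16.2%, TCACNCCAC in 1.12% and the DR1 repeat in 0.0538%. A match describes letters and is not evidence of binding. In the RefSeq annotation Plin4 and Plin5 are neighbours with 0 protein-coding genes between them, and Plin3 lies 7 such genes from Plin5. RefSeq also lists 2 pseudogenes of Plin3, and whether the Plin3 probes match them was not tested.

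The values are log2 signals that the authors summarised per probe set, and they compare a probe set between samples, not one gene with another. Over all 15 arrays the median of all values was 6.10, array medians lay between 6.08 and 6.12, and pairs of arrays correlated at 0.989 to 0.996. A probe set was kept for the gene table when 5 or more samples exceeded that median, and 7 of the 9 genes passed, each represented by its brighter probe set. Plin5 and Fitm1 did not pass, with 1 and 0 samples above the median. The gene table held 9540 genes and was fitted with limma, and all 31042 non-control probe sets were fitted together without a filter so that every member had a test. Hepatocyte identity was clear, with 12 of 12 hepatocyte markers above the filter and albumin (Alb) at 15.34 to 15.38. Of 10 adipocyte markers on the array 5 passed the filter, Cfd among them at 7.35 to 8.32, and Plin1, Adipoq, Lep, Fabp4 and Adrb3 were under it, with Adipoq at 4.05 to 4.43 and Plin1 at 4.97 to 5.33. Of 9 skeletal muscle markers on the array, 8 were under it.

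No member was called at an adjusted p under 0.05 in any comparison, while single members showed sizeable differences in signal. At 10 mg/kg, 0 of 7 tested genes were called by limma with Benjamini-Hochberg adjustment over 9540 genes, where 0.105% of all genes were called. The count at an unadjusted p under 0.05 was 1 of 7, Plin3, beside 13.3% of all genes in either direction and 4.49% in the direction of higher values. For 30 mg/kg 0 of the 7 were called, as were 0% of all genes, and 1 had an unadjusted p under 0.05, again Plin3, beside 16.1% of all genes and 5.27% with higher values. Over the mean of both doses 0 of the 7 were called, beside 0.147% of all genes, and 1 had an unadjusted p under 0.05, beside 17.7%. Between the doses the count was 0 of 7 both for calls and for an unadjusted p under 0.05, beside 0% and 5.82% of all genes. With 7 genes, a count of 1 is near the share over all genes in either direction.

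The fit of all probe sets called 0 of the 11 in any comparison, beside 0% of all probe sets at 10 mg/kg, 0.0258% at 30 mg/kg, 0% between the doses and 0.0773% for the mean of both doses. At each dose 2 of the 11 had an unadjusted p under 0.05, Plin3 and the dimmer Plin2 probe set, beside 9.43% of all probe sets at 10 mg/kg and 14.7% at 30 mg/kg. Among the 7 genes the middle log2 difference (median) was 0.02 for 10 mg/kg and -0.06 for 30 mg/kg, beside medians of -0.02 and -0.03 over all genes. Both doses were compared with the same 5 vehicle samples.

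**Figure D1:**
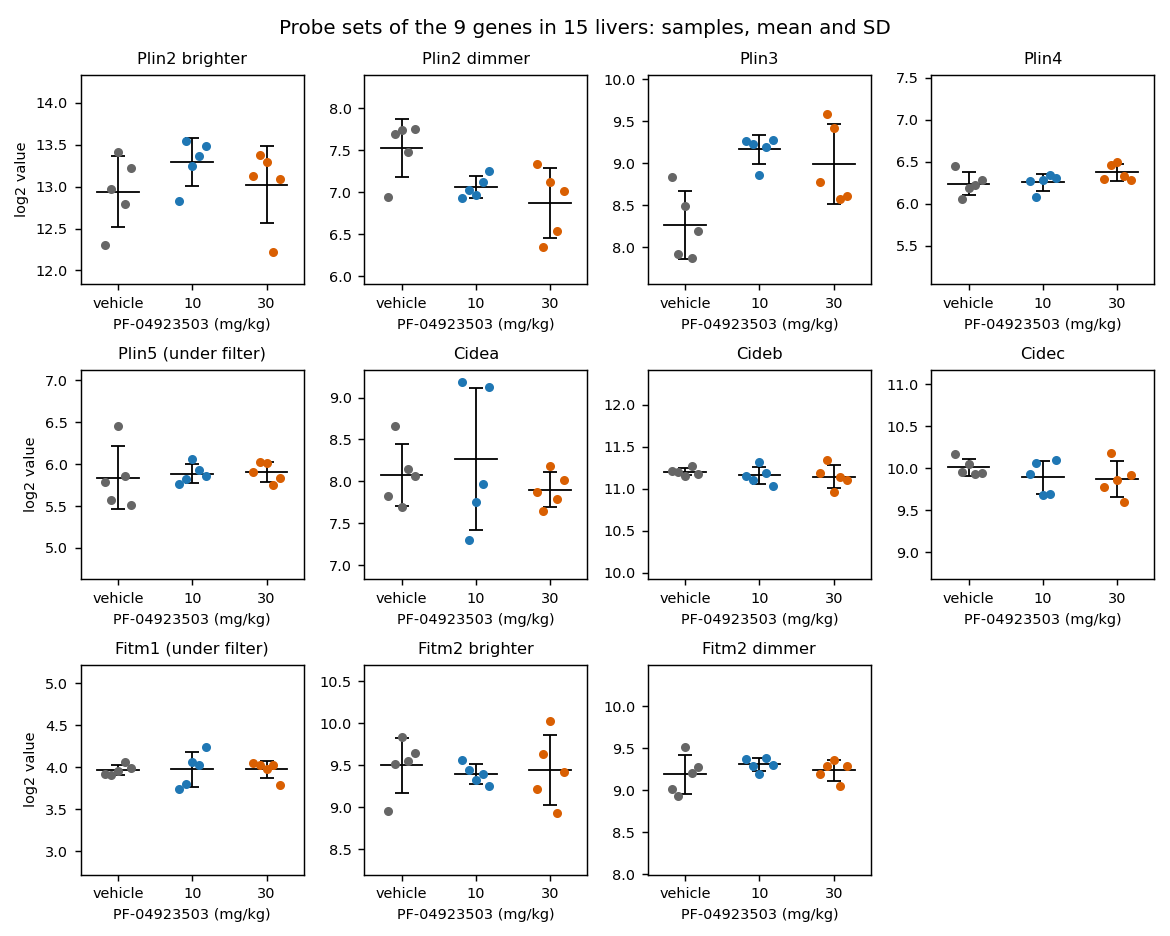
Log2 value (vertical axis, the same 2.5-unit span in every panel) of each of the 11 probe sets in vehicle (grey), 10 mg/kg (blue) and 30 mg/kg (orange) livers. Points are samples, bars are the mean and error bars the SD of 5. The 5 Plin3 values at 10 mg/kg lie above all 5 vehicle values, and Cidea has 2 high samples at 10 mg/kg.

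Plin3 (perilipin 3, also known as TIP47) is a cytosolic protein that coats small, newly made droplets. Its log2 values were 8.84, 7.92, 8.49, 7.87 and 8.20 in vehicle samples 1 to 5. At 10 mg/kg they were 9.27, 9.23, 8.86, 9.19 and 9.27. The 30 mg/kg samples gave 8.77, 9.59, 9.42, 8.57 and 8.61. All 10 mg/kg samples lay above all vehicle samples, narrowly where 10 mg/kg sample 3 (8.86) met vehicle sample 1 (8.84), whereas at 30 mg/kg samples 1, 4 and 5 lay below vehicle sample 1. Of the 7 genes 1 had groups that did not overlap at 10 mg/kg, beside 2.44% of all genes (0.975% with higher values), and 0 did at 30 mg/kg, beside 3.21%. The means were 8.26 ± 0.41, 9.16 ± 0.17 and 8.99 ± 0.47 (SD, n = 5 each). Plin3 stood at 1.87-fold the vehicle level at 10 mg/kg (95% confidence interval 1.36 to 2.56), with a limma adjusted p of 0.119, and ranked 62 of 9540 genes by p. The 30 mg/kg group stood at 1.66-fold (1.21 to 2.28, adjusted p = 0.163, limma), and over the mean of both doses at 1.76-fold (1.34 to 2.32, adjusted p = 0.0756, limma). The 30 mg/kg level was 0.888-fold the 10 mg/kg level, with an interval from 0.647 to 1.22 (limma, adjusted p = 0.931), so the order of the doses is not resolved. The difference stayed short of the threshold with any 1 sample left out, where it ran from 0.80 to 1.05 on the log2 scale at 10 mg/kg and from 0.58 to 0.87 at 30 mg/kg.

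Most markers of other liver cells were lower in mean in the treated groups of these bulk samples, in which fewer cells of a type and less RNA per cell cannot be told apart. All 9 Kupffer cell and macrophage markers on the array passed the filter, and 9 of 9 were lower in mean at each dose. Their summed linear signal ran from 6571 to 9792 in vehicle, from 4850 to 7581 at 10 mg/kg and from 4314 to 9567 at 30 mg/kg. Of the endothelial markers 9 of 10 passed, all 9 lower in mean at each dose, with summed signals of 4591 to 5410, 3742 to 4878 and 3850 to 5062. Stellate cell markers, 10 of 12 passing, were lower in mean in 10 at 10 mg/kg and in 6 at 30 mg/kg, and their sums ran from 3504 to 4107 in vehicle, 2947 to 3588 at 10 mg/kg and 3025 to 4408 at 30 mg/kg. Of the adipocyte markers on the array 5 of 10 passed, 3 of them lower in mean at each dose, with summed signals of 23743 to 27669 in vehicle, 18225 to 24923 at 10 mg/kg and 20087 to 25794 at 30 mg/kg. A linear sum is carried by its brightest genes. The markers under the filter and Cfd, at 7.35 to 8.32 on the log2 scale, add little to this one, so it is not a measure of adipocytes. At 10 and 30 mg/kg the median log2 differences of passing markers were -0.39 and -0.34 (Kupffer cell and macrophage) and -0.23 and -0.19 (endothelial). They were -0.21 and -0.13 for stellate and -0.29 and -0.18 for adipocyte markers, beside -0.02 and -0.03 over all genes. With a median below 0, most genes were lower in mean too, and the marker counts were not tested. The part of other cells in the values of Plin3 and the other members was not tested.

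Plin2 (perilipin 2, adipophilin), the constitutive coat of hepatocyte droplets, was read by 2 probe sets that pointed in different directions. The brighter one had log2 values of 12.30, 12.97, 13.41, 12.79 and 13.22 in vehicle samples 1 to 5. At 10 mg/kg they were 12.82, 13.54, 13.25, 13.37 and 13.48, and at 30 mg/kg 13.12, 13.38, 13.29, 12.23 and 13.09. The groups overlapped at both doses, and sample 4 at 30 mg/kg was the lowest of all 15. By this probe set Plin2 stood at 1.28-fold the vehicle level at 10 mg/kg (95% confidence interval 0.910 to 1.79, limma adjusted p = 0.534) and at 1.06-fold at 30 mg/kg (0.755 to 1.48, limma adjusted p = 0.892). Both intervals include 1.

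The dimmer Plin2 probe set had log2 values of 6.94, 7.70, 7.75, 7.48 and 7.76 in vehicle samples 1 to 5. At 10 mg/kg they were 6.93, 7.03, 6.97, 7.12 and 7.26, and at 30 mg/kg 7.34, 6.34, 7.13, 6.54 and 7.01. Vehicle sample 1 lay among the treated samples, and the other 4 vehicle samples lay above all 10 treated ones. In the fit of all probe sets the vehicle level was 1.38-fold that at 10 mg/kg (95% confidence interval 1.06 to 1.80, limma adjusted p = 0.436) and 1.57-fold that at 30 mg/kg (1.21 to 2.05, limma adjusted p = 0.154). When both probe sets were averaged, the Plin2 log2 difference at 10 mg/kg was -0.06 in place of 0.35, and at 30 mg/kg -0.29 in place of 0.08.

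The brighter minus the dimmer Plin2 value within each liver separated treated from vehicle livers, while the doses overlapped. It was 5.36, 5.28, 5.67, 5.31 and 5.46 in vehicle samples 1 to 5. At 10 mg/kg it was 5.89, 6.52, 6.28, 6.24 and 6.22, and at 30 mg/kg 5.79, 7.04, 6.16, 5.68 and 6.07. All 10 treated livers exceeded all 5 vehicle livers, although 30 mg/kg sample 4 (5.68) was barely above vehicle sample 3 (5.67). This difference was examined after the values had been seen, and it was therefore fitted in limma for all 2330 genes with 2 filtered probe sets. The mean gap was larger than in vehicle by 0.82 on the log2 scale at 10 mg/kg (95% confidence interval 0.41 to 1.23, adjusted p = 0.205), rank 6 by p among these genes, and by 0.73 at 30 mg/kg (0.32 to 1.14, adjusted p = 0.145), rank 22. Over the mean of both doses it was 0.77 (0.42 to 1.13, adjusted p = 0.128, limma), with groups that did not overlap, as in 0.429% of the gene pairs of probe sets. At 10 and 30 mg/kg the groups did not overlap in 1.63% and 2.49% of them. Across these genes 0% were called at 10 mg/kg, 0.0858% at 30 mg/kg and 0.0429% for the mean of both doses. With only vehicle and 10 mg/kg in the fit the limma adjusted p at 10 mg/kg was 0.0186, and without 30 mg/kg sample 2 it was 0.0111, with 0.0286 for the mean of both doses. Of the 15 fits without 1 sample this was the only 1 called, and over them the limma adjusted p ran up to 0.413 at 10 mg/kg, 0.266 at 30 mg/kg and 0.256 for the mean of both doses. With the replicate block it was 0.212, 0.185 and 0.135. Over 5 alternative settings, the fit of only the groups compared among them, the limma adjusted p at 30 mg/kg ran from 0.141 to 0.262. Fitm2, the other member with 2 probe sets, gave a log2 difference between them of 0.31 ± 0.23 in vehicle, 0.09 ± 0.10 at 10 mg/kg and 0.21 ± 0.30 at 30 mg/kg (SD, n = 5 each), with overlapping groups. The positions of the Plin2 probes on its transcripts were not used here, so the data do not say which transcript each probe set reads.

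**Figure D2:**
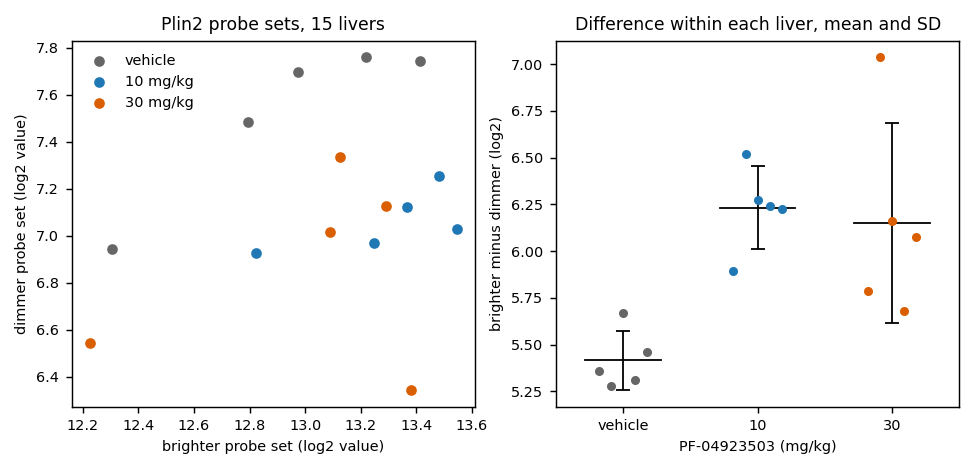
Left, the dimmer against the brighter Plin2 probe set (log2 values, both axes) in each of 15 livers, coloured by group. Right, the brighter minus the dimmer value by group, with mean and SD. Vehicle livers lie between 5.28 and 5.67 and treated livers between 5.68 and 7.04.

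The other perilipins showed little difference. Plin4, a perilipin best known from adipocytes and muscle, lay near the filter, with 13 of 15 samples above 6.10. Its log2 values were 6.06 to 6.45 in vehicle, 6.07 to 6.35 at 10 mg/kg and 6.28 to 6.50 at 30 mg/kg. At 30 mg/kg it stood at 1.10-fold the vehicle level (95% confidence interval 0.985 to 1.22, limma adjusted p = 0.377), and at 10 mg/kg at 1.01-fold (0.908 to 1.12, limma adjusted p = 0.947). Plin5, which tethers droplets to mitochondria, gave values of 5.51 to 6.46 in vehicle, 5.77 to 6.06 at 10 mg/kg and 5.75 to 6.02 at 30 mg/kg, with vehicle sample 3 the highest at 6.46. Its folds against vehicle were 1.04 (0.851 to 1.26) at 10 mg/kg and 1.05 (0.860 to 1.28) at 30 mg/kg, with limma adjusted p = 0.941 and 0.849 over all probe sets. A probe set this dim can understate a difference, so the intervals hold for its signal and not for the transcript.

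Of the CIDE genes, Cidea, which promotes droplet fusion and is known from brown fat, varied most. Its log2 values were 7.83, 8.66, 7.69, 8.15 and 8.06 in vehicle samples 1 to 5. At 10 mg/kg they were 9.19, 7.30, 7.76, 7.97 and 9.12, and at 30 mg/kg 7.87, 7.65, 8.18, 7.79 and 8.02. Samples 1 and 5 at 10 mg/kg exceeded every other liver, and sample 2 of the same group was below every other liver. The SD at 10 mg/kg was 0.85, against 0.37 in vehicle and 0.21 at 30 mg/kg. The means did not part, with folds against vehicle of 1.14 at 10 mg/kg (95% confidence interval 0.719 to 1.81, limma adjusted p = 0.832) and 0.885 at 30 mg/kg (0.558 to 1.40, limma adjusted p = 0.823). Pooled within groups, the SD of Cidea was 0.55 and exceeded that of 98.2% of genes, beside a median of 0.12 over all genes.

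Cideb, the CIDE gene of normal hepatocytes, which also acts in the lipidation of very low density lipoprotein, was even across the livers. Its log2 values were 11.16 to 11.28 in vehicle, 11.03 to 11.32 at 10 mg/kg and 10.96 to 11.34 at 30 mg/kg. The folds were 0.968 (95% confidence interval 0.878 to 1.07) at 10 mg/kg and 0.959 (0.870 to 1.06) at 30 mg/kg, with limma adjusted p = 0.800 and 0.688. Differences from vehicle beyond about 1.15-fold in either direction lie outside both intervals. Cidec (FSP27), which enlarges droplets by passing lipid from small to large ones, had values of 10.17, 9.96, 10.06, 9.93 and 9.94 in vehicle samples 1 to 5, of 9.93, 10.06, 9.68, 9.70 and 10.10 at 10 mg/kg, and of 9.78, 10.18, 9.86, 9.60 and 9.93 at 30 mg/kg. Samples 2 and 5 at 10 mg/kg lay within the vehicle range and the other 3 below it, while at 30 mg/kg sample 2 was the highest of all livers and the other 4 lay below every vehicle sample. The Cidec folds were 0.923 (0.790 to 1.08) at 10 mg/kg and 0.907 (0.776 to 1.06) at 30 mg/kg, with limma adjusted p = 0.671 and 0.528.

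The FIT genes did not separate the groups either. Fitm2, the broadly expressed member, which acts at sites of droplet budding, had values in its brighter probe set of 8.95 to 9.83 in vehicle, 9.26 to 9.56 at 10 mg/kg and 8.93 to 10.02 at 30 mg/kg. In the dimmer probe set they were 8.94 to 9.52, 9.20 to 9.39 and 9.05 to 9.36. The brighter probe set gave folds of 0.931 (95% confidence interval 0.713 to 1.21) at 10 mg/kg and 0.962 (0.737 to 1.25) at 30 mg/kg, and the dimmer one 1.09 (0.947 to 1.25) and 1.03 (0.899 to 1.18). Limma adjusted p-values were 0.846 and 0.906 for the brighter and 0.738 and 0.856 for the dimmer probe set. Fitm1, known mainly from skeletal muscle, had values of 3.91 to 4.06 in vehicle, 3.74 to 4.25 at 10 mg/kg and 3.79 to 4.05 at 30 mg/kg, all under the filter.

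**Figure D3:**
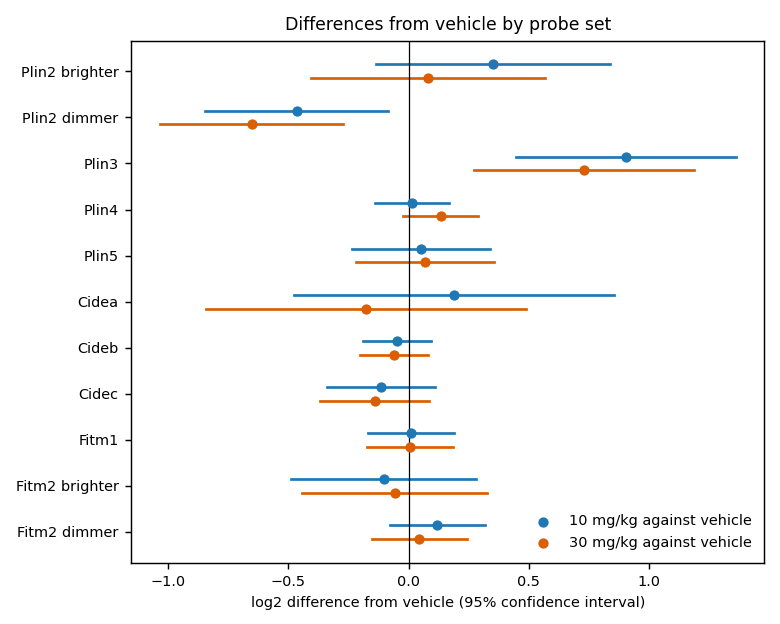
Log2 difference from vehicle (horizontal axis) at 10 mg/kg (blue) and 30 mg/kg (orange) for each of the 11 probe sets, with 95% confidence intervals as lines. Probe sets that stand for a gene come from the fit of 9540 genes, and the dimmer Plin2 and Fitm2 probe sets, Plin5 and Fitm1 from the fit of all probe sets. The intervals of Plin3 lie above 0 and those of the dimmer Plin2 probe set below 0, before adjustment over all features.

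Within groups the members differed in how far livers of the same treatment varied. The pooled SD was 0.40 for Plin2, 0.37 for Plin3 and 0.31 for Fitm2, above those of 96.4%, 95.9% and 94.0% of genes. It was 0.18 for Cidec, 0.12 for Plin4 and 0.10 for Cideb, above 78.8%, 47.7% and 37.9% of genes. After group means were removed, the brighter Plin2 and Fitm2 probe sets varied together over the 15 arrays (Pearson r = 0.71, Spearman rho = 0.64), as did Plin3 and Cidec (r = 0.68, rho = 0.68). These were the highest r between probe sets of different genes among 36 pairs and are given as a description, since all values of a liver come from 1 array and 1 normalisation. The Plin2 probe sets correlated at r = 0.55 (rho = 0.57) within groups, and the Fitm2 probe sets at r = 0.72 (rho = 0.76).

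For each member in the gene table the 3 genes with the highest Pearson r over the 15 arrays were found among all genes, as a description. For Plin3 they were Wfdc21 (r = 0.92, Spearman rho = 0.89), Pdk1, a kinase that inhibits pyruvate dehydrogenase (r = 0.92, rho = 0.88), and Dbi, the acyl-CoA binding protein (r = 0.91, rho = 0.85). With group means removed, their r was 0.89, 0.80 and 0.78. The group differences entered this choice, so no test of these genes is given. For Plin2 they were Sphk2, a sphingosine kinase (r = 0.88, rho = 0.84), Prrc1 (r = 0.88, rho = 0.82) and Arf4, a GTPase of vesicle transport (r = 0.87, rho = 0.63). For Fitm2 they were Lonp1, a mitochondrial protease (r = 0.87, rho = 0.93), Copa, a subunit of the COPI coat (r = 0.87, rho = 0.80), and Tmem230 (r = 0.82, rho = 0.72). For Cidea they were Pgm2l1, Slc5a6 and Osbpl9 (r = 0.79 to 0.83), for Cideb Sec62, Exoc3 and Commd1 (0.80 to 0.82), for Cidec Bckdhb, Mrm2 and Ablim1 (0.78 to 0.81) and for Plin4 Morn4, Scnn1b and Gtpbp3 (0.83 to 0.86).

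Related genes that make, fill or empty droplets were read from 4 lists, and of these only the fatty acid synthesis list had called genes. Counts at an unadjusted p under 0.05 stand beside 4.49% of all genes higher and 8.79% lower at 10 mg/kg, and 5.27% higher and 10.8% lower at 30 mg/kg. Of 20 tested genes for droplet formation and droplet-bound enzymes, 0 were called at either dose by limma, and 2 were higher and 3 lower at an unadjusted p under 0.05 at 10 mg/kg, with a median log2 difference of 0.03. Hsd17b13, a droplet-bound dehydrogenase of hepatocytes, averaged 11.65 ± 0.30 in vehicle, 12.19 ± 0.11 at 10 mg/kg and 11.92 ± 0.15 at 30 mg/kg (SD, n = 5 each), which is 1.45-fold the vehicle level at 10 mg/kg (limma adjusted p = 0.105) with no overlap of the groups. Ldaf1, which works with seipin at sites of droplet assembly, had a log2 difference of -0.32 at 10 mg/kg (limma adjusted p = 0.235). In the 30 mg/kg group 1 was higher and 1 lower at an unadjusted p under 0.05, or 10% of the list beside 16.1% of all genes, and the median was 0.00. The lower one was Hsd17b11, at 0.834-fold the vehicle level (limma adjusted p = 0.200).

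Of 13 tested genes of lipolysis and its control 0 were called by limma, while 6 were higher and 1 lower at an unadjusted p under 0.05 at 10 mg/kg and 5 higher and 1 lower at 30 mg/kg. The medians were 0.25 and 0.17. Hsd17b13 counts in this list too. Tm6sf2 had the lowest p of the list at 30 mg/kg, at 1.27-fold the vehicle level (limma adjusted p = 0.156), and stood at 1.22-fold at 10 mg/kg (adjusted p = 0.245). Abhd6 stood at 1.39-fold at 10 mg/kg (limma adjusted p = 0.164) and 1.13-fold at 30 mg/kg (adjusted p = 0.549). Pnpla3, a droplet lipase that is made under lipogenic conditions, had the largest fold at both doses, at 20.6-fold the vehicle level at 10 mg/kg (95% confidence interval 5.69 to 74.6, limma adjusted p = 0.074) and 6.95-fold at 30 mg/kg (1.92 to 25.2, adjusted p = 0.174). Its vehicle values ran from 5.78 to 9.78, and without vehicle sample 5 the folds were 32.5 and 10.97. The limma adjusted p at 10 mg/kg was then 0.0235, and without 30 mg/kg sample 2 it was 0.048. It was 0.0344 with only vehicle and 10 mg/kg in the fit, and it ran up to 0.171 with 1 sample left out. Abhd5 (CGI-58), the lipase activator that perilipins hold back, stood at 1.26-fold (limma adjusted p = 0.309) and 1.24-fold (adjusted p = 0.258). G0s2, which inhibits the lipase ATGL, averaged 12.17 ± 0.34 in vehicle, 11.77 ± 0.78 at 10 mg/kg and 11.17 ± 0.68 at 30 mg/kg (SD, n = 5 each; limma adjusted p = 0.216 at 30 mg/kg).

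Of 24 tested PPAR-alpha targets other than the members 0 were called by limma, and 7 were higher and 0 lower at an unadjusted p under 0.05 at 10 mg/kg, with a median of 0.18. In the 30 mg/kg group 4 were higher and 1 lower, or 20.8% of the list beside 16.1% of all genes, with a median of -0.03. Between the doses 8 of the 24 were lower at 30 mg/kg at an unadjusted p under 0.05, beside 3.25% of all genes. The 10 mg/kg samples that gave the 7 higher genes also enter this count. Cyp4a1, a fatty acid hydroxylase, stood at 1.65-fold the vehicle level at 10 mg/kg (limma adjusted p = 0.108) and Slc22a5, the carnitine transporter, at 1.51-fold (adjusted p = 0.119). The folds at 30 mg/kg were 1.28 (limma adjusted p = 0.294) and 1.15 (adjusted p = 0.492). Of 21 tested genes of fatty acid synthesis 1 was called at 10 mg/kg, the desaturase Fads1, which rose 1.34-fold (limma adjusted p = 0.0427), and 0 were called at 30 mg/kg, where Fads1 stood at 1.23-fold (adjusted p = 0.0979). The Fads1 call at 10 mg/kg was lost with the replicate block (limma adjusted p = 0.0763) and in 8 of 15 fits without 1 sample, those without vehicle sample 1, 2 or 4, without 10 mg/kg sample 2, 3, 4 or 5 and without 30 mg/kg sample 1, where its adjusted p ran up to 0.139. At an unadjusted p under 0.05 there were 14 at 10 mg/kg and 10 at 30 mg/kg, all higher, with medians of 0.61 and 0.30. Acaca and Acacb, which encode the enzyme the drug inhibits, stood at 1.99-fold and 2.01-fold the vehicle level at 10 mg/kg, and Scd, the stearoyl-CoA desaturase, at 19.4-fold (95% confidence interval 5.80 to 64.8), with limma adjusted p of 0.122, 0.0943 and 0.0696. Vehicle values of Scd ran from 6.82 to 11.71, and without vehicle sample 5 its folds were 34.3 at 10 mg/kg and 25.7 at 30 mg/kg, in place of 19.4 and 14.5. The limma adjusted p of Scd was then 0.00708 and 0.0159, and that of Acacb at 10 mg/kg 0.0286. Without 30 mg/kg sample 2 it was 0.048 for Scd and 0.0489 for Acaca at 10 mg/kg. Over all 15 such fits it ran up to 0.171 for Scd, 0.268 for Acaca and 0.191 for Acacb at 10 mg/kg, and up to 0.230 for Scd at 30 mg/kg. Whether the coat and fusion genes differ from these lists was not tested.

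**Figure D4:**
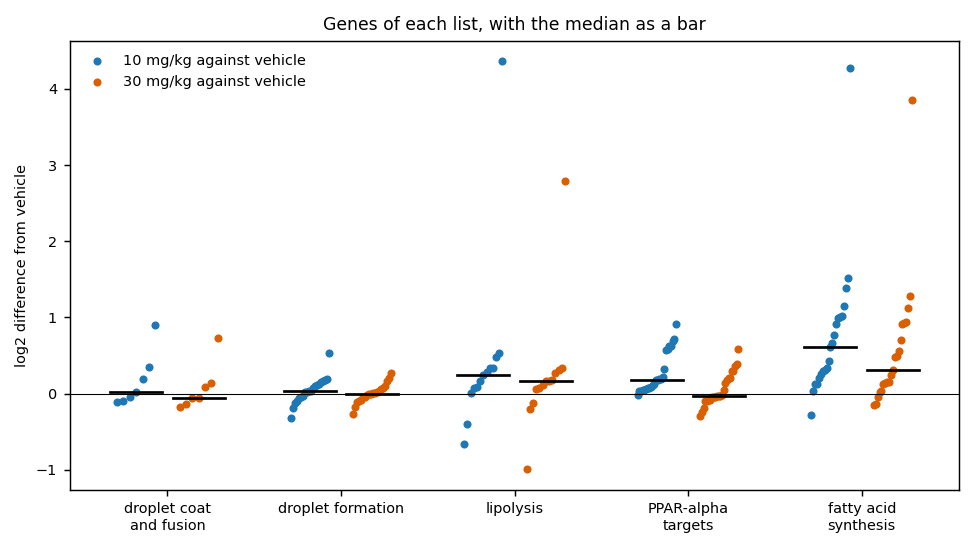
Log2 difference from vehicle (vertical axis) at 10 mg/kg (blue) and 30 mg/kg (orange) for the 7 tested coat and fusion genes and for 4 lists of related genes. Points are genes and bars are medians. The medians of the coat and fusion genes are 0.02 and -0.06, and those of fatty acid synthesis 0.61 and 0.30.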

How the data were processed

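The authors deposited log2 values, 1 per probe set and array, that were already normalised. Per the submitters' processing notes RMA, GCRMA 2.12.1 and limma 2.14.7 were in use, with no role stated, and the step that made these values is unknown here. A change common to most genes would be removed by normalisation, and dim probe sets understate changes. Arrays have no depth, and their number limits the precision.

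Symbols came from the platform annotation and were updated through GRCr8 gene entries. All 15 arrays entered 1 model of group means (limma 3.58.1, R 4.3.3), with eBayes and Benjamini-Hochberg adjustment over 9540 genes (brightest filtered probe set each) or over 31042 probe sets without a filter. A feature was called at an adjusted p under 0.05. The procedure was tested on simulated data. All members were named whatever their test. Some list genes were named by call or lowest p, and others, Abhd5 and G0s2 among them, for neither reason. The members, lists and tests were chosen with earlier results of these data known. Alternatives were other filters, probe set rules, normalisation, variance options, groups, the replicate block and 1 sample left out. Further list genes, the alternatives for list genes and the Plin2 probe set difference were chosen after their values were seen.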

Additional observations from a re-analysis of the deposited data

Results flagged for a closer look

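In 3 groups 1 liver stood apart from the other 4 by a gap wide relative to the range of the group (Dixon's test), out of 36 groups of member values examined, where chance flags about 1 in 20. The brighter Plin2 probe set was at 12.23 in 30 mg/kg sample 4, below the next value of 13.09. Plin3 was at 8.86 in 10 mg/kg sample 3, below the next value of 9.19. Plin4 was at 6.07 in 10 mg/kg sample 2, below the next value of 6.27.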

How the results depend on the processing

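The count of members called was 0 in all 182 fits and comparisons, alternatives and fits with 1 sample left out included. Over all genes the count of calls at 10 mg/kg was 10. It ran from 0 (replicate block) to 11 (stricter filter) in the alternatives with genes as features, and from 0 to 26 with 1 sample left out. At 30 mg/kg it was 0, also in these alternatives, and ran up to 5 with 1 sample left out. For the mean of both doses it was 14 and ran from 3 to 22 in these alternatives and from 0 to 85 with 1 sample left out. With all filtered probe sets as features the counts were of probe sets, at 16, 10 and 25. The labels do not say whether the replicate numbers pair the samples. With group means removed, same-numbered arrays correlated above 0.1 in 3 of 15 pairs (median 0.05). Arrays with unlike numbers did so in 9 of 60 pairs (median -0.012), and these counts do not decide the question. With the replicate block Plin3 kept a log2 difference of 0.90 at 10 mg/kg (limma adjusted p = 0.171) and 0.73 at 30 mg/kg (0.203), and no member was called.

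Member differences that changed sign were not called, and the largest of them in the reported fit was 0.351 (Plin2 at 10 mg/kg). With the mean of probe sets, Plin2 was -0.057 at 10 mg/kg, -0.29 at 30 mg/kg and -0.17 for the mean of both doses, and Fitm2 was 0.0081, -0.014 between the doses and 0.0012 for the mean. With quantile normalisation, Fitm1 was -0.0078 at 10 mg/kg, -0.036 at 30 mg/kg and -0.022 for the mean, Cidec 0.015 and Plin5 -0.0042 between the doses. Ldaf1, which was -0.05 at 30 mg/kg, was 0.00096, and with 1 sample left out it ran from -0.10 to 0.016. With median centring, Cidea was -0.0019 for the mean and Fitm1 -0.0074 at 30 mg/kg. With 1 sample left out, log2 differences at 10 mg/kg ran from -0.041 to 0.43 for Cidea, -0.058 to 0.069 for Fitm1, -0.029 to 0.067 for Plin4 and -0.028 to 0.21 for Plin5. At 30 mg/kg they ran from -0.013 to 0.053 for Fitm1, -0.20 to 0.072 for Fitm2, -0.019 to 0.13 for its dimmer probe set, -0.079 to 0.28 for Plin2 and -0.012 to 0.22 for Plin5. Between the doses they ran from -0.063 to 0.033 for Cideb, -0.10 to 0.042 for Cidec, -0.062 to 0.066 for Fitm1, -0.098 to 0.18 for Fitm2, -0.31 to 0.033 for the Plin2 probe set gap and -0.014 to 0.060 for Plin5. For the mean of both doses they ran from -0.11 to 0.15 for Cidea, -0.026 to 0.038 for Fitm1, -0.22 to 0.0027 for Fitm2 and -0.020 to 0.22 for Plin5. The cause was not tested.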
